A study of Macaca mulatta with 6 samples.

Results

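Pairs of neighbouring CCGG sites that lay 99 bp, 190 bp or between 232 and 236 bp apart (both ends left out) in the rhesus macaque genome, Macaca mulatta, are described here in sperm and in embryonic stem cells (ESC) that are haploid. The pairs were chosen by position, at distances picked with earlier results of these data known. The sites listed in either deposited table were merged, sorted within chromosomes 1 to 20, and both sites of every neighbouring pair at one of these distances were taken. This gave 13754 pairs with 27462 sites of 1357052 sites in all: 2458 pairs at 99 bp, 2117 at 190 bp and 9179 at the 3 distances between 232 and 236 bp, called the long pairs below. The haploid ESC are parthenogenetic by the title of the series, meaning that their genome comes from an egg without a sperm, and sperm carry the paternal genome. Per the labels, each cell type gave an HpaII, a BGT_MspI and an MspI library. The strain, age and number of animals and the number of cell lines are not given in the labels. With 1 library per digest there is no replicate error, no test between groups was possible, and all values describe these 6 libraries.

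HpaII and MspI recognise the same 4 letters, CCGG. HpaII is blocked by methylation of the inner cytosine, whereas MspI cuts methylated sites too, and a glucosyltransferase treatment, abbreviated BGT, protects hydroxymethylated sites from MspI. Comparing tags from the digests is how the assay, HMST-Seq, reads modification. Interspersed repeats are copies of transposable elements scattered through the genome. Copies of one family share their restriction sites, so that the same spacing between sites recurs wherever a copy was inserted. Primate genomes hold very many copies of Alu, a short element rich in CpG, and DNA methylation of such elements is known to be erased and rebuilt in germ cells. The deposited tables hold positions and no sequence, no genome of their build was used here, and so no family of repeats is assigned to these pairs and no sequence is shown.

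The recurring distances stood out from the distances around them, which is how they came to be selected, and their numbers are given as a description only. The most frequent distance of the long pairs, the middle one, had 4926 pairs, against a median of 919 at nearby distances, a ratio of 5.36. The 2458 pairs at 99 bp were 2.87 times and the 2117 pairs at 190 bp were 2.18 times the median nearby. The 99 bp peak was 1 bp wide, with 920 pairs at 98 bp and 848 at 100 bp just outside it. The 190 bp peak was nearly as sharp, with 935 pairs at 189 bp and 1143 at 191 bp. The peak of the long pairs leaned towards longer distances: 2082 pairs lay 1 bp below its middle and 2171 lay 1 bp above it, and just outside the members there were 1197 at 232 bp and 1789 at 236 bp. The label of repeat-like pairs thus rests on spacing and was not checked against sequence.

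**Figure D1:**
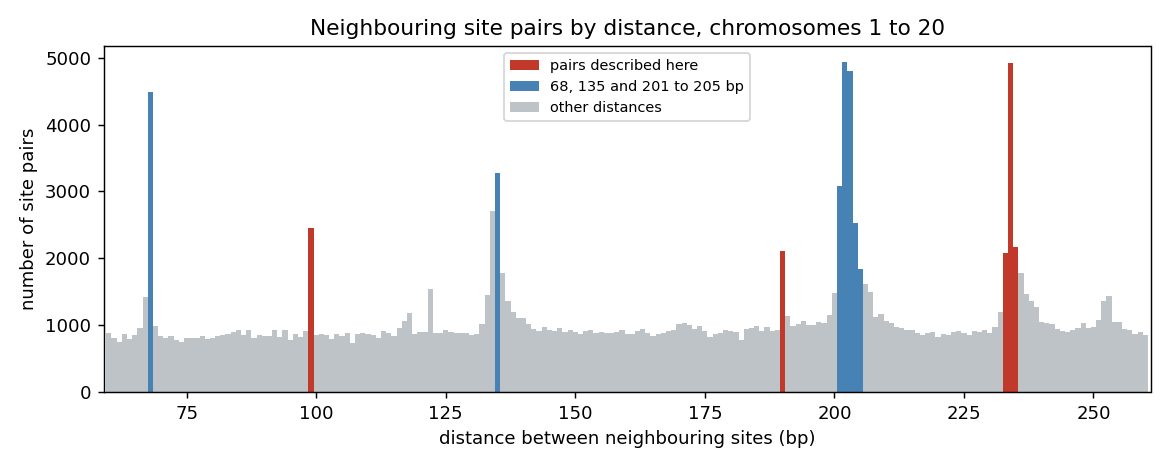
Number of neighbouring site pairs (y axis) at each distance in bp (x axis) on chromosomes 1 to 20, with the pairs described here in red. The red bars at 99 bp and 190 bp reach 2458 and 2117 pairs and the tallest red bar on the right 4926, while most grey bars lie near 900. Some of the other recurring distances are in blue and the rest are grey.

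Control pairs were neighbouring sites at other distances within 20 bp of these, leaving out 5 recurring distances just above 200 bp and pairs that held a member site. They numbered 34578 around 99 bp, 35587 around 190 bp and 40336 around the long distances. Among the control distances, 11 lesser recurring ones were kept, such as 236 bp, with at least 1.3 times the median number of pairs nearby. Each table gives 3 distinct signals per site, as many as its libraries. They are called here the first signal (column 3), the middle signal (columns 4 and 7, which hold the same value in all 1366982 rows of the haploid ESC table and all 1297392 rows of the sperm table) and the last signal (column 8). No name ties a signal to a digest, so a higher signal is not read here as more or less methylation. Statements that set the tables side by side assume that each column holds the same digest in both. How the authors scaled the signals is not stated in the labels or the tables, and the scales of the 2 tables need not match. The read depth is not given. The lowest first signals came in steps, which is visible as gaps on the left of the plot of the first signal. Intervals are 95% intervals that cover counting error over sites or pairs only. Neighbouring sites and copies of one repeat are not independent, which makes them narrower than the true error.

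The first signal of sperm was higher at members than at controls. At 190 bp pairs its median over sites was 27.0, with quartiles of 11.9 and 113 (3916 sites), against a median of 17.7 and quartiles of 9.04 and 48.4 at control sites. At long pairs the median was 24.3, with quartiles of 12.1 and 79.4, against 18.9, 9.12 and 49.6 at controls. At 99 bp pairs it was 23.4, with quartiles of 11.9 and 79.2, against 17.8, 9.05 and 51.4. The upper quartile thus moved more than the lower one at each distance. The median over all sites of chromosomes 1 to 20 was 15.5.

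In haploid ESC the first signal had almost the same median at member and control sites and a narrower spread at members. The medians were 20.7 and 21.02 at 99 bp, 19.3 and 19.3 at 190 bp, and 20.9 and 20.3 at long distances (member, then control). The 90th percentile was 59.0 at members and 107 at controls for 99 bp, 52.8 and 88.8 for 190 bp, and 52.5 and 80.6 for long distances. The high end of the distribution was thus thinner at members than at controls in haploid ESC and thicker in sperm. Over all sites of haploid ESC the 90th percentile was 62.9, nearer to members than to controls at each distance.

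**Figure D2:**
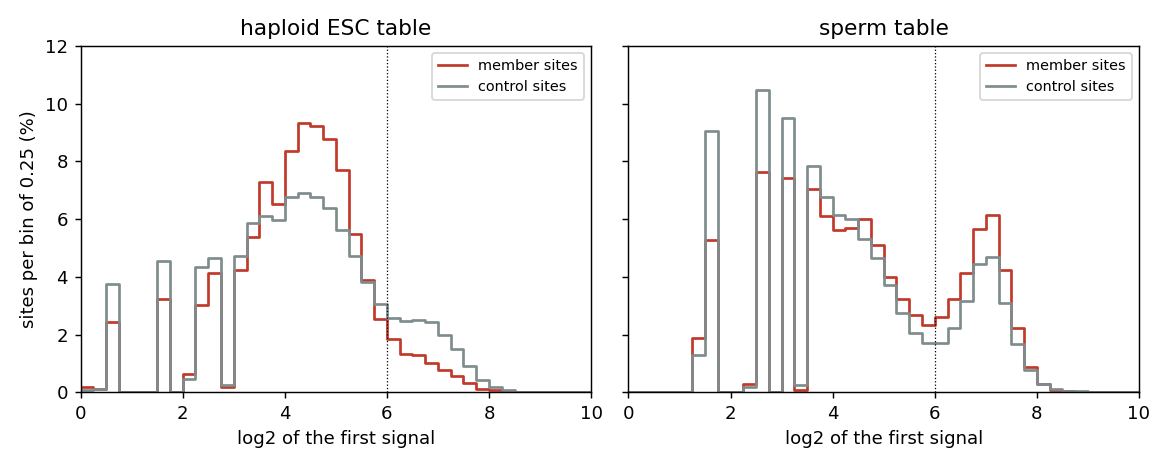
Distribution of the log2 of the first signal over member sites (red) and control sites (grey), in percent of sites per bin of 0.25 on the log2 scale, for haploid ESC (left) and sperm (right). The dotted line marks a signal of 64. The sperm table has a second hump above the line that is taller at members, and in haploid ESC the members have fewer sites above the line than controls.

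The sperm distribution had 2 humps with a dip near a signal of 64. In sperm 28.1% of member sites at 99 bp, 36.2% at 190 bp and 28.5% at long distances reached 64, against 23.1%, 22.1% and 22.2% of control sites. In haploid ESC 9.11%, 7.85% and 6.77% did, against 18.1%, 14.5% and 13.5%. Of all sites, 15.1% reached 64 in sperm and 9.75% in haploid ESC. In haploid ESC that share was nearer to members than to controls, and in sperm it was below both. Pairs were counted as high where both of their sites had a first signal of at least 64, a value chosen after the distributions were seen. Among all neighbouring pairs listed in sperm, 8.70% were high, and in haploid ESC 4.09% were. Distant neighbours are included in these shares, and the controls give the closer comparison. In sperm, 619 of 1829 pairs at 190 bp were high, 33.8% (95% Wilson interval 31.7% to 36.0%), against 20.4% of control pairs. At the long distances, 2072 of 8196 pairs were high, 25.3% (24.4% to 26.2%), against 19.4%. At 99 bp, 548 of 2208 were high, 24.8% (23.1% to 26.7%), against 22.05%. The difference was 13.4, 5.84 and 2.77 percentage points, so the 190 bp pairs lay farthest from their controls.

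In haploid ESC the difference had the opposite sign at each of the 3 distances. There, 106 of 1978 pairs at 190 bp were high, 5.36% (4.45% to 6.44%), against 10.02% of controls. At the long distances, 305 of 8623 pairs were high, 3.54% (3.17% to 3.95%), against 8.21%. At 99 bp, 151 of 2317 pairs were high, 6.52% (5.58% to 7.60%), against 13.7%. With controls weighted to the mix of distances among members, 26.5% of member pairs and 20.1% of control pairs were high in sperm, and 4.35% and 9.47% in haploid ESC. Whether haploid ESC and sperm differ in this was not tested, since each rests on 1 library per digest.

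Taken distance by distance, some of the 5 member distances lay outside the range of the surrounding values. Among 115 control distances the sperm share of high pairs ran from 16.4% to 25.9%, with a median of 20.6%. The pairs at 190 bp (33.8%) and at the middle long distance (26.5%) lay above all of them, and those at 99 bp (24.8%) and at the outer long distances (24.2% and 23.6%) lay within their range. The margin at the middle long distance was small: its interval, 25.2% to 27.8%, included the highest control value, at 98 bp. Pairs at 131 bp, which is not a control distance, were high in 26.4% (23.4% to 29.6%). In haploid ESC the control distances ran from 4.98% at 236 bp to 16.9% at 105 bp, with a median of 10.8%. The long pairs (4.77%, 2.46% and 4.78% by distance) lay below all of them, and those at 99 and 190 bp lay near the low end. The intervals of the outer long distances, 3.91% to 5.81% and 3.94% to 5.79%, included the lowest control value. At 236 bp, just outside the members, 23.005% were high in sperm and 4.98% in haploid ESC.

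**Figure D3:**
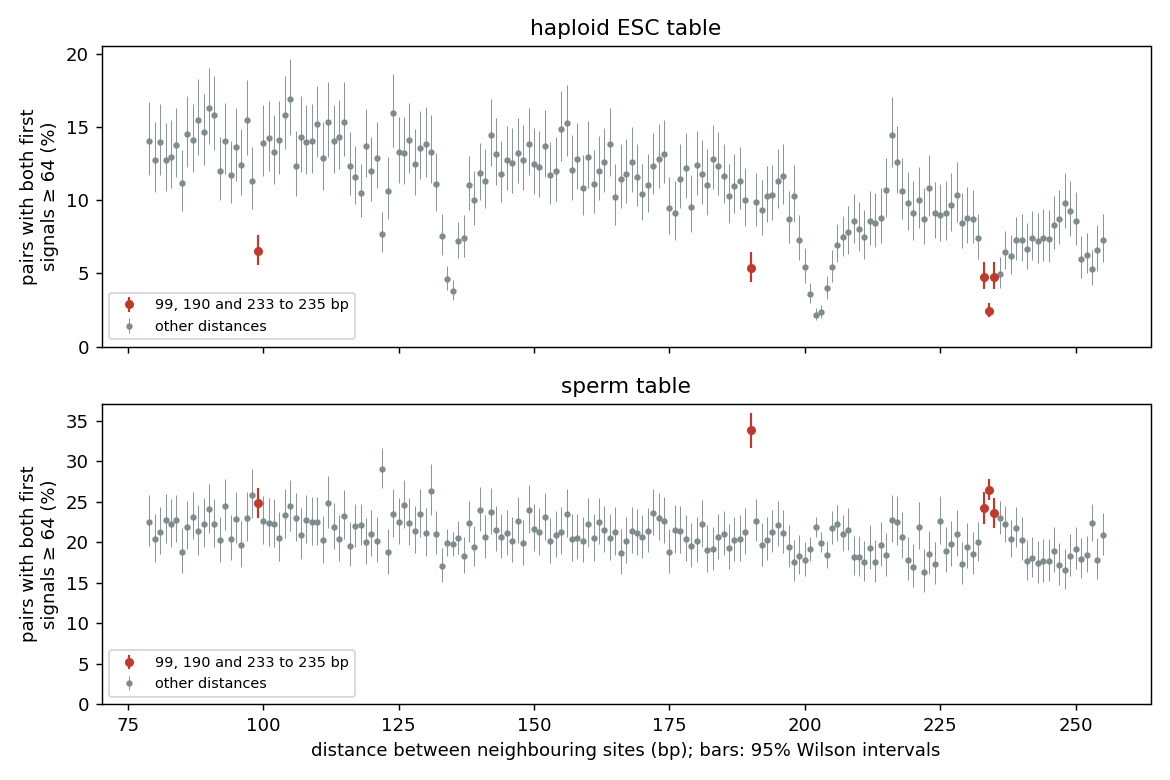
Percent of pairs with both first signals of at least 64 (y axis) by distance between the sites in bp (x axis), for haploid ESC (top) and sperm (bottom), with 95% Wilson intervals. In sperm the red point at 190 bp stands at 33.8%, above the grey points, and in haploid ESC the lowest red point on the right stands at 2.46%.

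The other recurring distances with the most pairs shared the low share in haploid ESC and not the high share in sperm. Pairs at 68, 202 and 203 bp were high in 3.19%, 2.19% and 2.35% of cases in haploid ESC. In sperm they were high in 20.8%, 21.9% and 19.97%, close to the median of the control distances. The 190 bp pairs, at 33.8%, stood above each of these distances in sperm. Less frequent recurring distances did have high shares in sperm, 26.1% at 67 bp and 29.1% at 122 bp, beside 8.27% and 7.73% in haploid ESC, and were named after their values were seen. No test of this difference was possible over samples.

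The other signals were lower at members than at controls in both cell types, so the first signal did not move with them. In sperm the median middle signal was 15.6 at 99 bp pairs, 15.3 at 190 bp pairs and 13.3 at long pairs, against 20.8, 20.01 and 17.6 at the controls of each. The last signal gave 15.1, 15.0 and 12.9 against 21.1, 20.1 and 17.7. In haploid ESC the median middle signal was 17.7, 16.9 and 15.4 against 21.04, 20.2 and 18.2, and the last signal 17.2, 16.7 and 15.1 against 22.2, 21.1 and 19.04. The pairs at long distances had the lowest middle and last signals of the 3 distances in both tables. Over all sites the middle and last medians were 16.3 and 16.4 in sperm and 17.9 and 18.1 in haploid ESC. These were nearer to members than to controls at 99 and 190 bp, and nearer to controls at long distances. The middle signal also moved with the distance to the nearest outer site, and the part of that distance in these differences was not tested.

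The first contrast, the log2 ratio of the first to the middle signal with 1 added to each, sets these signals against each other within a table. Its median in sperm was 0.67 at 99 bp, 0.91 at 190 bp and 0.89 at long pairs, against -0.06, -0.08 and 0.13 at controls. In haploid ESC it was 0.28, 0.24 and 0.40 against 0.16, 0.03 and 0.21. Members exceeded controls by 0.73 to 0.99 in sperm and by 0.12 to 0.21 in haploid ESC, on this log2 scale. The second contrast, of the middle to the last signal, was near 0 throughout, between 0.03 and 0.04 at members and between -0.07 and -0.01 at controls in both tables.

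A site is called here for a pair of signals where the adjusted p in the authors' deposited tables is below 0.05. The cut of 0.05 was set here, and calls in the authors' deposited tables mean adjusted p-values under it. Neither the labels nor the tables state the test behind these p-values. For the first and middle signals, 66.8% of all sites in haploid ESC and 69.7% in sperm were called by this cut in the authors' deposited tables. Member sites in haploid ESC had a lower share of calls than controls in the authors' deposited table, with 66.4% against 72.9% at 99 bp, 65.5% against 71.1% at 190 bp and 65.4% against 69.4% at long distances, close to the share of all sites. In sperm the called shares in the authors' deposited table were 74.9% against 75.4% at 99 bp, 77.8% against 74.8% at 190 bp and 74.7% against 73.2% at long distances. The interval of the difference at 99 bp, from -1.86 to 0.73 points, includes 0, and among pairs with no outer site within 1000 bp the difference there was 2.76 points in the authors' deposited table.

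In sperm the direction of these calls differed more than their number, and in haploid ESC calls of a lower first signal differed from controls more than calls of a higher one. In sperm the first signal was the higher one at 34.6% of all sites called or not, and the lower one at 35.1%, counting called sites of the authors' deposited table. Among members it was called higher at 51.4% of sites at 99 bp, 55.5% at 190 bp and 56.0% at long distances in the authors' deposited table, against 37.3%, 36.5% and 40.1% at controls. It was called lower at 23.5%, 22.2% and 18.6%, against 38.2%, 38.3% and 33.1% at controls, in the authors' deposited table. In haploid ESC the backgrounds in the authors' deposited table were 34.7% higher and 32.2% lower. Member sites there were called higher at 40.3%, 38.8% and 43.4% and lower at 26.1%, 26.6% and 21.9%, against 40.6%, 36.6% and 40.1% higher and 32.3%, 34.4% and 29.2% lower at controls.

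For the middle and last signals few sites were called in the authors' deposited tables, 11.1% of all sites in haploid ESC and 7.86% in sperm. Member sites were called at 11.9%, 10.8% and 10.8% in haploid ESC (99 bp, 190 bp and long distances) in the authors' deposited table, against 14.0%, 13.3% and 12.4% at controls. In sperm the called shares in the authors' deposited table were 8.44%, 8.20% and 7.22% against 11.6%, 10.5% and 9.39%. The members were thus near the share of all sites and below their controls. Over all distances the difference from controls was -1.80 points in haploid ESC and -2.36 in sperm, counting calls of the authors' deposited tables. Pairs with no outer site within 1000 bp gave -0.22 and -0.69 by the authors' deposited tables. Over all sites the middle signal was called higher at 4.78% and lower at 6.36% in haploid ESC, and at 3.85% and 4.01% in sperm. At long member pairs it was called higher at 5.76% and lower at 5.06% in haploid ESC, against 4.18% and 8.23% at controls in the authors' deposited table. In sperm these were 4.08% and 3.14%, against 4.04% and 5.35% at controls.

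Both sites of a pair tended to hold alike first signals, and how members compared with controls depended on the measure. Spearman's rho between the sites of a pair, a description over pairs within 1 library, was 0.68 in sperm at 99 bp (2208 pairs), 0.74 at 190 bp (1829 pairs) and 0.68 at long distances (8196 pairs), against 0.63, 0.60 and 0.58 at controls. In haploid ESC it was lower at members, with 0.48, 0.40 and 0.42 against 0.60, 0.48 and 0.44. The absolute log2 ratio of the left to the right site, which does not rank pairs, was smaller at members in both tables. Its median in haploid ESC was 0.68, 0.81 and 0.77 against 0.84, 0.95 and 0.96, and in sperm 0.73, 0.70 and 0.75 against 0.84, 0.87 and 0.90. The middle and last signals of a pair were much less alike, with rho between 0.096 and 0.23 at members of both tables. Pairs with 1 high site and 1 site below 64 made up 8.42%, 8.47% and 8.66% of sperm pairs at 99 bp, 190 bp and long distances, above the 5.28%, 6.13% and 7.82% of controls. The left and the right site were alike in level: in sperm the medians were 24.1 and 24.4 at 99 bp, 29.9 and 28.9 at 190 bp, and 25.6 and 25.1 at long distances.

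Member pairs stood more alone than control pairs, which the rule did not use. The median distance to the nearest site outside the pair was 754 bp at 99 bp pairs, 684 bp at 190 bp pairs and 755 bp at long pairs, against 336, 380 and 390 bp at controls. No outer site lay within 1000 bp of 40.2%, 37.6% and 39.8% of member pairs, against 16.8%, 20.8% and 21.4% of controls. A further pair at one of the other recurring distances, such as 68 or 203 bp, adjoined 0.976%, 1.23% and 0.937% of member pairs, against 1.65%, 2.10% and 2.34% of controls.

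Within classes of this isolation the sperm difference was largest where no site was near. With no outer site within 1000 bp, 44.1% of 699 pairs at 190 bp were high in sperm (40.4% to 47.8%), against 17.1% of controls. At the long distances it was 31.4% of 3295 pairs (29.8% to 33.0%) against 19.1%, and at 99 bp 28.3% of 895 pairs (25.4% to 31.3%) against 13.7%. With an outer site nearer than 300 bp, members and controls were closer in sperm: 29.4% and 25.3% at 190 bp, 23.5% and 22.6% at long distances, and 27.5% and 28.5% at 99 bp, where the order turned. With the nearest outer site between 300 and 1000 bp away, 26.4% against 16.6% were high at 190 bp, 19.95% against 16.1% at long distances and 19.4% against 17.7% at 99 bp. The part that isolation has in the differences over all pairs was not tested.

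In haploid ESC the share of high pairs fell with isolation in both groups. Among lone pairs 1.71% were high at 99 bp, 1.07% at 190 bp and 1.34% at long distances, against 6.07%, 3.88% and 3.21% of controls. With the nearest outer site between 300 and 1000 bp away, 4.69%, 3.30% and 2.81% were high, against 11.3%, 8.26% and 6.97%. That middle class had the widest gap at each distance. Among crowded pairs the shares were 18.0%, 15.3% and 9.33% against 18.5%, 14.6% and 11.9%. The intervals of crowded members and controls overlapped at 99 bp (15.0% to 21.5% for members) and 190 bp (12.4% to 18.9%), and members stayed below controls at long distances (8.05% to 10.8%). The middle signal in sperm also moved with isolation: at long member pairs its median was 17.6 with an outer site nearer than 300 bp, 9.99 between 300 and 1000 bp and 15.2 beyond. At controls of the long pairs the medians were 20.8, 14.4 and 17.9 in the same order.

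**Figure D4:**
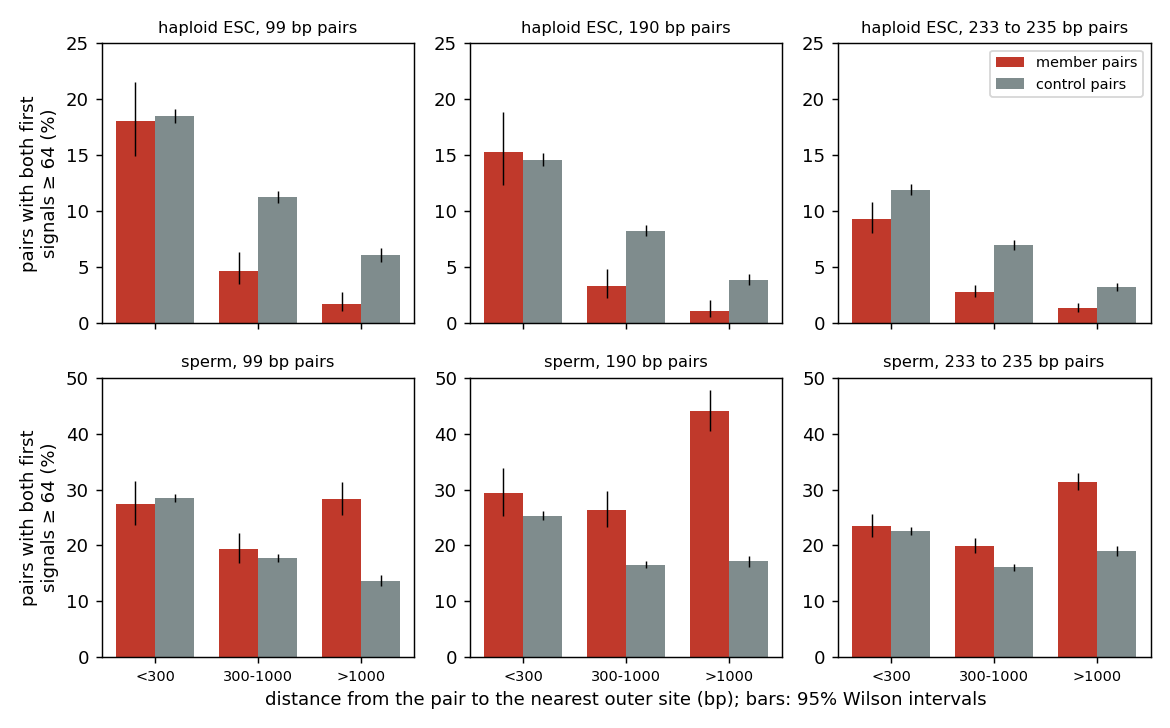
Percent of pairs with both first signals of at least 64 (y axis) by distance from the pair to the nearest outer site (x axis), for member pairs (red) and control pairs (grey) at 99 bp, 190 bp and the long distances, in haploid ESC (top) and sperm (bottom), with 95% Wilson intervals. In sperm the red bars rise above the grey ones most clearly beyond 1000 bp, where 44.1% of the 190 bp pairs were high.

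Pairs with all 4 entries, both sites in both tables, allowed the cell types to be set side by side. They numbered 2074 at 99 bp, 1703 at 190 bp and 7681 at long distances. Of the member pairs that were high in sperm, a part was high in haploid ESC too: 21.3% of 525 such pairs at 99 bp, 13.3% of 579 at 190 bp and 10.6% of 1957 at long distances. Among controls that were high in sperm, 53.4%, 42.1% and 34.4% were high in haploid ESC as well. Among all pairs listed in haploid ESC, whatever their sperm signal, 6.52%, 5.36% and 3.54% of members were high there, against 13.7%, 10.02% and 8.21% of controls. The part that this lower base has in the gap was not tested. The median first signal in haploid ESC of the members that were high in sperm was 26.6, 22.2 and 24.4, against 90.8, 65.3 and 50.8 for controls. It lay near the 20.3, 20.03 and 21.1 of members that had both sites below 64 in sperm. Of the latter, 2.46%, 2.24% and 1.54% were high in haploid ESC, a smaller share than among members that were high in sperm.

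Site by site, Spearman's rho of the first signal across the tables was 0.39 at 99 bp, 0.31 at 190 bp and 0.35 at long member pairs, against 0.60, 0.56 and 0.55 at controls. For the middle signal it was 0.77, 0.72 and 0.75, against 0.79, 0.77 and 0.76. These are descriptions over sites, which share a library in each table. The first contrast was higher in sperm than in haploid ESC at 56.9%, 61.3% and 61.1% of member sites, and at 42.7%, 45.5% and 47.3% of control sites. Of all sites in both tables, 4.19% were called for the first pair of signals in both, with the first signal lower in haploid ESC and higher in sperm, and 4.85% the other way round, in the authors' deposited tables. At members the former share was 7.75%, 9.60% and 7.42% and the latter 3.32%, 3.38% and 2.83%, in the authors' deposited tables. At controls the order was the other one, with 4.32%, 4.97% and 4.56% and 6.53%, 5.89% and 5.45%.

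Listing differed little. In haploid ESC 3.09%, 3.66% and 3.28% of member sites at 99 bp, 190 bp and long distances were missing from the table, against 3.10%, 3.03% and 2.99% of controls. In sperm 5.57%, 7.51% and 5.81% were missing, against 7.08%, 7.31% and 6.64%. The interval of the difference includes 0 at 99 bp in haploid ESC (-0.51 to 0.49 points) and at 190 bp in sperm (-0.62 to 1.02 points).

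Chromosomes held similar numbers of member pairs per 1000 sites and differed widely in their sperm signal. Chromosome 10 had the fewest member pairs per 1000 sites, 8.81, and chromosome 12 the most, 11.3. In sperm 13.5% of member pairs were high on chromosome 20, the lowest share, and 47.0% on chromosome 5, the highest. Controls, weighted to the mix of distances, had 13.4% on chromosome 10 and 30.5% on chromosome 5, the lowest and the highest. Members exceeded controls in sperm on 17 of 20 chromosomes, by up to 16.5 points on chromosome 5, and lay below them on chromosome 16 (-1.99 points), chromosome 19 (-6.02 points) and chromosome 20 (-1.25 points). In haploid ESC members lay below controls on 20 of 20 chromosomes, with differences between -1.95 points on chromosome 18 and -7.92 points on chromosome 6. The median first contrast was higher at members than at controls on 20 of 20 chromosomes in both tables, by 0.51 to 1.18 in sperm and by 0.05 to 0.30 in haploid ESC.

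**Figure D5:**
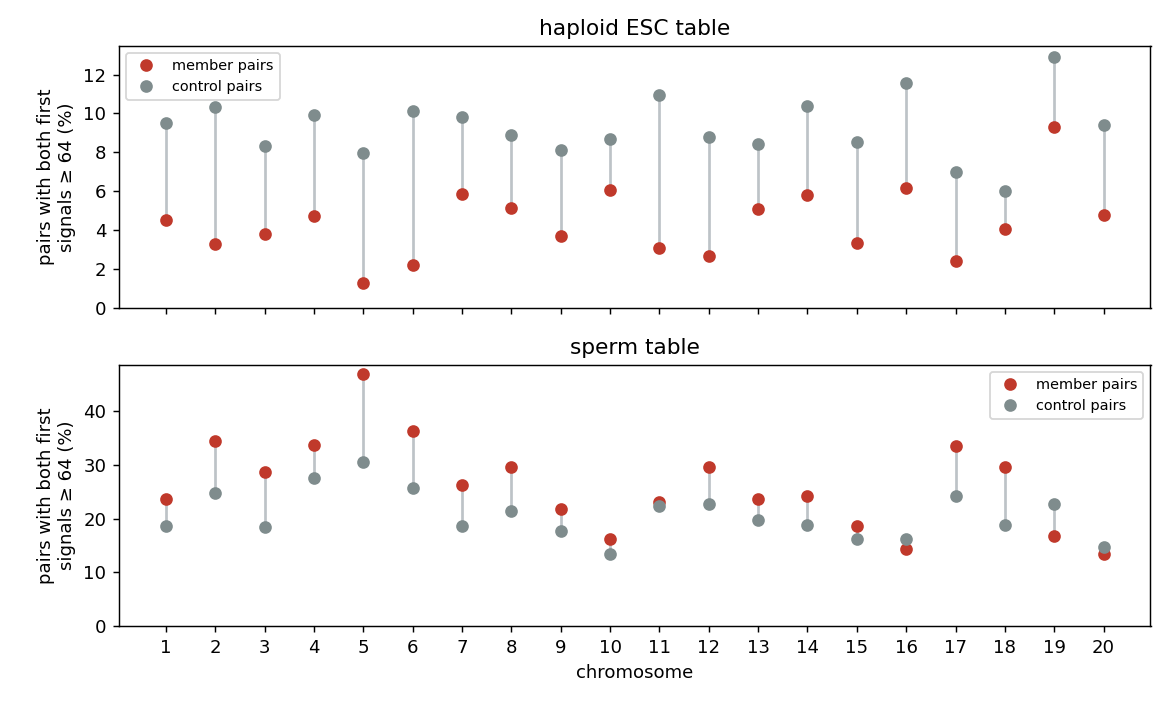
Percent of member pairs (red) and control pairs (grey) with both first signals of at least 64 (y axis) on each chromosome (x axis), for haploid ESC (top) and sperm (bottom). In sperm the red points exceed the grey ones on 17 of 20 chromosomes, with chromosome 5 at 47.0%, and in haploid ESC they lie below on all 20.

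The single pairs named here are extremes and not typical members. They were named by a rule on the first contrast. Each pair was ranked by its smallest absolute contrast over both sites and both cell types. For each distance, the 2 top-ranked pairs with the same sign at both sites in both cell types were taken. So were the 2 top-ranked pairs with one sign at both sites in haploid ESC and the other sign at both sites in sperm. All 12 pairs were called for the first pair of signals at both sites in both of the authors' deposited tables. The rule picks large contrasts, so these calls largely follow from it and are no separate result. Positions are those of the tables. The submitters' processing notes name hg19, a human build, while the chromosomes are numbered as in the macaque, so the build is not known and no gene or annotation is given.

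Among pairs of the same sign, the first signal was the higher one in 6 of 6. At 99 bp, the pair on chromosome 4 from 134445801 to 134445900 had first signals of 146 and 97.4 in haploid ESC and 249 and 205.99 in sperm, beside middle signals of 12.5 and 11.3, and 5.02 and 7.31. The 99 bp pair on chromosome 2 from 132926035 to 132926134 had first signals of 132 and 45.4 in haploid ESC and 27.2 and 63.4 in sperm, and no middle signal above 4.97. At 190 bp, the pair on chromosome 12 from 39498748 to 39498938 had first signals of 54.4 and 39.3 in haploid ESC and 78.7 and 57.2 in sperm. These pairs show a first signal well above the middle one at both sites in each table, a size of contrast that the rule selects.

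The pair on chromosome 2 from 177703876 to 177704066, also at 190 bp, had first signals of 69.0 and 49.5 in haploid ESC and 40.8 and 168 in sperm. At the long distances, the pair on chromosome 2 from 104780127 to 104780361 had 100.1 and 84.3 in haploid ESC and 203.6 and 88.7 in sperm. The pair on chromosome 6 from 171330970 to 171331205, also a long pair, had 168 and 49.2 in haploid ESC and 250.2 and 64.6 in sperm, with the left site above the right one in both cell types. The first contrast had the same sign at all 4 entries in 795 of 2074 pairs at 99 bp, 600 of 1703 at 190 bp and 2980 of 7681 at long distances, and the first signal was the higher one in 583, 450 and 2471 of them. The share with the first signal higher at all 4 entries was 28.1%, 26.4% and 32.2% at members and 25.6%, 22.3% and 24.8% at controls, and the share with it lower at all 4 was 10.2%, 8.81% and 6.63% against 19.4%, 19.7% and 14.9%.

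Among pairs of opposite sign, the first signal was higher in sperm and lower in haploid ESC in 4 of 6. On chromosome 7 from 47951770 to 47951869, a 99 bp pair had first signals of 1.56 and 3.26 in haploid ESC and 120.1 and 106 in sperm, beside middle signals of 17.8 and 16.4, and 12.02 and 16.8. On chromosome 18 from 25911389 to 25911579, a 190 bp pair had 3.27 and 4.98 in haploid ESC and 96.4 and 71.0 in sperm. On chromosome 14 from 12950855 to 12951089, a long pair had 1.57 and 3.27 in haploid ESC and 75.7 and 131 in sperm. In these pairs the middle signal differed far less between the tables than the first one did.

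The long pair on chromosome 5 from 77954688 to 77954922 had 6.59 and 6.64 in haploid ESC and 121 and 99.2 in sperm. The other 2 pairs went the opposite way. On chromosome 3 from 41070967 to 41071157, a 190 bp pair had first signals of 13.3 and 29.8 in haploid ESC and 8.995 and 3.04 in sperm, while its middle signals were 3.05 and 7.39, and 26.3 and 17.8. On chromosome 11 from 132748844 to 132748943, a 99 bp pair had 113 and 184 in haploid ESC and 3.02 and 31.3 in sperm. Opposite signs at both sites were less frequent than equal ones. The first signal was the higher one in sperm alone in 141 pairs at 99 bp, 142 at 190 bp and 493 at long distances, and in haploid ESC alone in 58, 50 and 191. As shares these were 6.80%, 8.34% and 6.42% of member pairs, against 3.83%, 4.05% and 3.68% of controls, and 2.80%, 2.94% and 2.49%, against 6.02%, 4.95% and 4.94%.

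Members seldom followed each other. No run held more than 2 member pairs, and there were 46 runs of 2, such as those on chromosome 1 from 4157211 to 4157544 (99 bp, then a long pair), from 28882708 to 28883176 (both long pairs) and from 130676673 to 130677006 (a long pair, then 99 bp). In the first of these the 3 sites had first signals of 15.4, 22.5 and 33.6 in haploid ESC and 11.9, 21.7 and 27.0 in sperm, with no high site. In the last they had 19.8, 28.2 and 34.5 in haploid ESC and 22.9, 27.4 and 40.9 in sperm. Tandem arrays of these distances were thus not seen among listed sites.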

How the data were processed

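HMST-Seq libraries of HpaII, BGT_MspI and MspI digests of haploid ESC and sperm were read from a single end, 50 bp, on a HiSeq2000, per the labels' protocols. The authors deposited 1 table per cell type without a header. Read from the values, the deposited signal columns hold positive scaled signal, the deposited p-value columns the p-value and adjusted p-value of 2 pairs of signals, and the last deposited column an adjusted value that reaches 1.03 and was used as a score. Not given in the sources used here are the aligner, scaling, filters and test. The submitters' processing notes name hg19. No column was tied to a digest, and no column of an unmapped sample was left out. The signals are not counts, so no count model was used.

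Sites of chromosomes 1 to 20 were merged by position with Python 3.11.15, pandas 2.3.3, numpy 2.4.6 and SciPy 1.17.1. Values over all 3 distances weight the controls of each distance by the members at it, save for the log2 ratios between sites, which pool the pairs. Differences of shares have intervals combined from Wilson intervals, and those of medians from order statistics. The search for pairs and the shares were checked on simulated data. Members, distances and the threshold of 64 were chosen with earlier results of these data known. Named pairs follow a rule on the first contrast, and the 3 named runs are the longest, ties going to the lowest position. Alternatives changed the control window, the sites, the pseudocount, the filter, the summary and the thresholds.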

Additional observations from a re-analysis of the deposited data

Results flagged for a closer look

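Members differed from controls in opposite directions in the 2 tables for 3 measures, with each interval apart from 0, save for first-pair calls at 99 bp. Whether haploid ESC and sperm differ in this was not tested, since each digest has 1 library. The share of pairs with both first signals of at least 64 was lower at members in haploid ESC by -7.18 points at 99 bp, -4.66 at 190 bp, -4.67 at the long distances and -5.12 over all distances. In sperm it was higher by 2.77, 13.4, 5.84 and 6.42 points. Spearman's rho of the 2 first signals of a pair was lower at members in haploid ESC by -0.11, -0.085, -0.020 and -0.047 in the same order, and higher in sperm by 0.056, 0.14, 0.10 and 0.098. This holds for rho alone: the median absolute log2 ratio between the sites was smaller at members in both tables. With pairs pooled without weights, it was 0.76 against 0.92 in haploid ESC and 0.74 against 0.87 in sperm. The share of sites called for the first pair of signals in the authors' deposited tables differed by -5.61 points at 190 bp, -4.01 at long distances and -4.69 over all distances in haploid ESC, and by 2.95, 1.504 and 1.35 points in sperm. At 99 bp these calls of the authors' deposited tables differed by -6.45 points in haploid ESC and -0.56 in sperm, where the interval included 0. The interval of rho at long distances in haploid ESC, -0.039 to -0.00069, nearly reached 0 and covers counting error only.

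The X chromosome lies outside the rule and held 595 pairs at these distances. Of those listed, 32.8% of 488 pairs were high in sperm, against 27.1% of control distances on X, and 2.26% of 575 pairs in haploid ESC, against 11.2%. At 99 bp the sperm shares on X were alike, 30.8% of 78 pairs (21.6% to 41.7%) and 30.96% of control pairs.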

How the results depend on the processing

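Differences are members minus controls over all distances. That of high pairs in sperm, 6.42 points, was 7.27 points with the middle long distance alone (of the 3), 7.63 without chromosomes 16, 19 and 20, 14.8 in pairs with no outer site within 1000 bp, and 8.75 and 4.09 with thresholds of 32 and 100. In haploid ESC, -5.12 points became -5.89 with the middle long distance alone, -5.94 for sites in both tables, -2.46 in lone pairs, -5.67 without the lesser recurring distances among controls, and -5.58 and -2.48 with those thresholds. The first contrast differed in sperm by 0.87 (middle long distance), 0.82 (without the 3 chromosomes), 0.85 and 0.61 (pseudocounts of 0.1 and 5), 0.99 (lone pairs) and 0.86 (lesser distances left out). In haploid ESC it differed by 0.15 (sites in both tables), 0.14 (pseudocount of 5), 0.24 (lone pairs) and 0.21 (lesser distances left out). For the first pair of signals, calls of the authors' deposited tables differed in sperm by 2.15 and 2.16 points at adjusted p below 0.01 and 0.001 and by 3.71 in lone pairs, and in haploid ESC by -7.19 and -9.31 at those thresholds and by -5.68 with the middle long distance alone. The middle signal differed in sperm by -4.24 (window of 40 bp), -4.98 (middle long distance), -6.35 (means), -2.69 (lone pairs) and -4.97 (lesser distances left out), and in haploid ESC by -2.78, -3.30, -1.62 and -3.27 for the window, the middle long distance, lone pairs and the lesser distances. The likeness of first signals differed in sperm by 0.041 as Pearson's r and 0.17 in lone pairs, and in haploid ESC by -0.028 in lone pairs. In lone pairs second-pair calls of the authors' deposited tables differed by -0.22 points in haploid ESC and -0.69 in sperm, against -1.80 and -2.36 over all pairs. Missing sites in sperm differed by -2.23 points in lone pairs.

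None of the differences above changed sign. Among the other differences whose interval excluded 0, the sign turned in the 7 cases below, and the cause was not tested. Where the interval included 0, a turned sign was not counted. An example is first-pair calls at 99 bp in sperm in the authors' deposited table, -0.56 points, which became 0.46 with a window of 40 bp, 0.13 at adjusted p below 0.001 and 2.76 in lone pairs. The first signal of haploid ESC, 0.54 higher at long member pairs by the median, was lower by the mean (-5.84), and over all distances 0.32 became -6.49 by the mean and -0.24 for sites in both tables. Likeness of first signals at 99 bp in sperm became -0.0087 as Pearson's r. In lone pairs of haploid ESC, second-pair calls at long distances became 0.023 points, likeness of first signals at long distances 0.0026, and likeness of last signals at 99 bp 0.0045. Lone pairs, the 11 lesser distances (at least 1.3 times the median number of pairs nearby) and the thresholds of 32 and 100 were chosen after the data were seen. With 1 library per digest, no replicate could be left out.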

Other observations

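Some recurring distances outside the rule add up to those described. Pairs at 31 bp numbered 1439, 2.10 times the median nearby, and pairs at 122 bp 1547, 1.74 times. The sum of 31 and 68 is 99, that of 68 and 122 is 190, and that of 31 and 203 is the middle long distance. The most frequent distance just above 200 bp was 202 bp, with 4928 pairs against 4803 at 203 bp. With 202 bp the sum falls just below the middle long distance. Listed sites seldom showed both parts side by side: 5 site triples had successive distances of 31 and 68 bp in either order, 2 of 68 and 122 bp, and 4 of 31 and 203 bp. With the shorter distance of each sum shifted by 3 to 12 bp, the shifted triples had medians of 1, 2 and 1 and reached 2, 5 and 4.

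Pairs at 122 bp were high in 29.1% of cases in sperm (95% Wilson interval 26.8% to 31.6%) and in 7.73% in haploid ESC. That sperm share lay above each of the 115 control distances, as did those of the pairs at 190 bp and the middle long distance. Pairs at 31 bp were high in 20.7% in sperm and 4.83% in haploid ESC. These distances were singled out after their values were seen.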
